A study of Mus musculus with 23 samples.

Results

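Kinases of the mitogen-activated protein (MAP) kinase cascades and protein phosphatases were followed in the prefrontal cortex of mice that had received mammary carcinoma cells under the skin. The genes were chosen by symbol, as those starting with Mapk, Map2k, Map3k, Map4k, Dusp plus a digit, Ppp1 to Ppp6 or Ppm1 in the annotation of the arrays. They number 81 genes on 85 oligos, of 8726 genes on 8997 oligos with 1 gene. Map2k5, Mapk6, Ppp2r2b and Ppp6r2 have 2 oligos each. By role there are 5 MAP kinases, 4 MAP2 kinases, 11 MAP3 kinases, 3 MAP4 kinases, 5 substrates and scaffolds of MAP kinases, and 11 dual-specificity phosphatases. The serine/threonine phosphatases hold 3 catalytic and 21 regulatory subunits of protein phosphatase 1 (PP1), 8 subunits of protein phosphatase 2A (PP2A), 3 catalytic subunits of calcineurin, 4 subunits of PP4, PP5 and PP6, and 3 members of the PPM family. The symbol also brings in Dusp11, which acts mainly on RNA, and Ppp1r2-ps7, a pseudogene by its name. Mapk14, Dusp4, Dusp6, Ppp2ca and Ppp3r1 are not among the genes named on these oligos and were not analysed here.

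The mice were Balb/c females aged 8 weeks. Mice of the tumour group were given 100000 cells of the mouse mammary carcinoma line 4T-1, suspended in phosphate-buffered saline (PBS; volume 100 µl), while control mice were given PBS alone. Both groups were injected under the skin, and tissue was taken 18, 72 or 192 h later. Total RNA was extracted with TRIzol. Each array compared 1 tumour RNA with 1 PBS RNA, labelled with Cy3 and Cy5, and each biological replicate was measured on a pair of arrays with the dyes swapped. The 14 arrays used give 7 replicates, which the labels number 4, 5 and 6 for the 18 h tissue and 3 and 4 for each of the later times. The sources used here do not say if a replicate stands for 1 mouse or for pooled mice, so the p-values cover only the spread among these samples, part of which may be technical.

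MAP kinase cascades pass a signal from MAP4 and MAP3 kinases to MAP2 kinases, which switch on a MAP kinase by phosphorylating it on threonine and tyrosine. The main branches are the ERK branch, which growth factors and synaptic activity use, and the JNK and p38 branches, which respond to stress and cytokines. Dual-specificity phosphatases remove both phosphates again, while PP1, PP2A and calcineurin, a phosphatase switched on by calcium, act on many neuronal proteins and are known for their part in synaptic plasticity.

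A replicate value is the log2 ratio of tumour over PBS averaged over both arrays of the swap, and values above 0 stand for a level that was higher in the tumour group. That direction is only likely, since the file headers do not tie a dye to a channel. It also takes the authors' log ratio as tumour over PBS, and every sign here would turn if that were reversed. Channel B was read as Cy5 because the ratio of channel B to channel A correlated with the authors' log ratios above 0 on all 7 arrays that carried tumour RNA in Cy5 (0.435 to 0.760 across spots) and below 0 on the 7 that carried it in Cy3 (-0.769 to -0.323). Between 2307 and 6694 oligos, and 27 to 68 of the 85 kinase and phosphatase oligos, had a value on both arrays of a replicate. The array measures brain tissue as a whole, so fewer cells of a type and less RNA per cell cannot be told apart. Of 57 marker genes of brain, blood and 4T-1 cell types, 32 were on the array and all 32 had a value on both arrays of some replicate, the neuronal genes Snap25, Syn1, Camk2a and Gad2 among them. The 4 blood cell markers were not on it. Of the marker oligos tested, 5 of 12 were above 0 at 18 h, 9 of 20 at 72 h and 14 of 23 at 192 h; 0 passed an adjusted p of 0.05 in limma and 2, 4 and 1 had an unadjusted p under 0.05. At 72 h all 3 vessel marker oligos tested were among those 4, 2 below 0 and 1 above, with a median log2 ratio of -0.37, and all 3 oligodendrocyte marker oligos were below 0, with a median of -0.28. All 3 excitatory cortical marker oligos tested at 72 h were below 0 too, with a median of -0.11. The other times differed: at 192 h, 3 of 4 oligodendrocyte marker oligos were above 0, with a median of 0.16. No oligodendrocyte marker oligo was tested at 18 h. The vessel median was -0.02 at 18 h and -0.01 at 192 h. The part of these cell types in the results below was not tested.

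Coverage of the kinases and phosphatases was incomplete. An oligo was tested at a time with at least 2 replicate values there. Of the 85 oligos, 21 were tested at every time, 16 at 2 times, 24 at 1 time and 24 at none, and 59 of the 81 genes were tested at some time. Only 7 oligos had a value in all 7 replicates: Mapk1ip1, Mapk11, the first oligos of Mapk6 and Ppp2r2b, Ppp1cb, Ppp5c and Ppm1d. Ppp1r3g had no replicate value at all. The 22 genes tested at no time are named under their roles below. This holds for the fit of replicate values, while a fit that takes arrays as observations left 1 of the 85 oligos untested.

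At none of the times did a kinase or phosphatase reach an adjusted p under 0.05. At 18 h the ratios farthest from 0 were those of Ppp3cb, a catalytic subunit of calcineurin (-0.53), Map2k4, a kinase that activates JNK and p38 (-0.51), and Mapk8ip2, a scaffold of the JNK branch (0.44). At 72 h the farthest was that of Ppp2r1b, a scaffold of PP2A (-0.32), and at 192 h that of Map4k4, a kinase upstream of JNK (0.34). None of these passed the test. At 18 h, 0 of 36 oligos tested passed in limma, against 0% of all 3361 oligos, and 3 had an unadjusted p under 0.05 against 6.16% of all. At 72 h, 0 of 47 passed, against 0% of 4212, and 0 had an unadjusted p under 0.05 against 2.71%. At 192 h, 0 of 36 passed, against 0% of 2753, and 1 had an unadjusted p under 0.05 against 3.34%. In this fit of replicate values the smallest adjusted p of these genes was 0.758 at 18 h, 0.998 at 72 h and 1 at 192 h by limma, two-sided. Limma with trend and robust settings also passed 0 at each time, with 3, 0 and 0 oligos of these genes under 0.05 unadjusted. A fit that takes arrays as observations reached 71, 82 and 60 of the oligos and passed 0, with 7, 3 and 4 under 0.05 unadjusted at 18, 72 and 192 h beside 6.3%, 2.77% and 3.63% of all. Some of these had too few replicate values to be tested otherwise, such as Ppm1g at 18 h (0.57) and Mapkapk2 at 18 h (-0.34) and 72 h (0.41). The smallest adjusted p of that limma fit was 0.774, 0.999 and 0.956 for these genes.

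The ratios lay close to 0 as a group. The median log2 ratio was -0.02 at 18 h, -0.01 at 72 h and 0.03 at 192 h, beside -0.01, -0.02 and 0.02 over all oligos tested. Above 0 were 16 of 36 oligos at 18 h (47.7% of all oligos), 22 of 47 at 72 h (45.6%) and 21 of 36 at 192 h (55.3%). Every replicate was on the same side of 0 for 16 oligos at 18 h (40.8% of all), for 25 at 72 h (48.6%) and for 20 at 192 h (48.7%). These shares are near those of the whole array. The 95% interval of each oligo tested lay inside -1 to 1 at every time, with a median reach of 0.32 to each side. These intervals are not adjusted for the number of oligos and use limma's moderated spread, so they do not exclude a shift of 2-fold. That of Mapk8ip2 at 18 h ran from 0.005 to 0.87, though its highest replicate stood at 1.02. The reach of 0.32 is not a limit of detection. Ppp3cb (-0.53) and Map2k4 (-0.51) at 18 h lay farther from 0 and had an adjusted p of 0.758 in limma. A log2 ratio over 0.25 in size was seen for 5 oligos at 18 h (13.3% of all), 2 at 72 h (8.29%) and 4 at 192 h (9.41%).

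**Figure D1:**
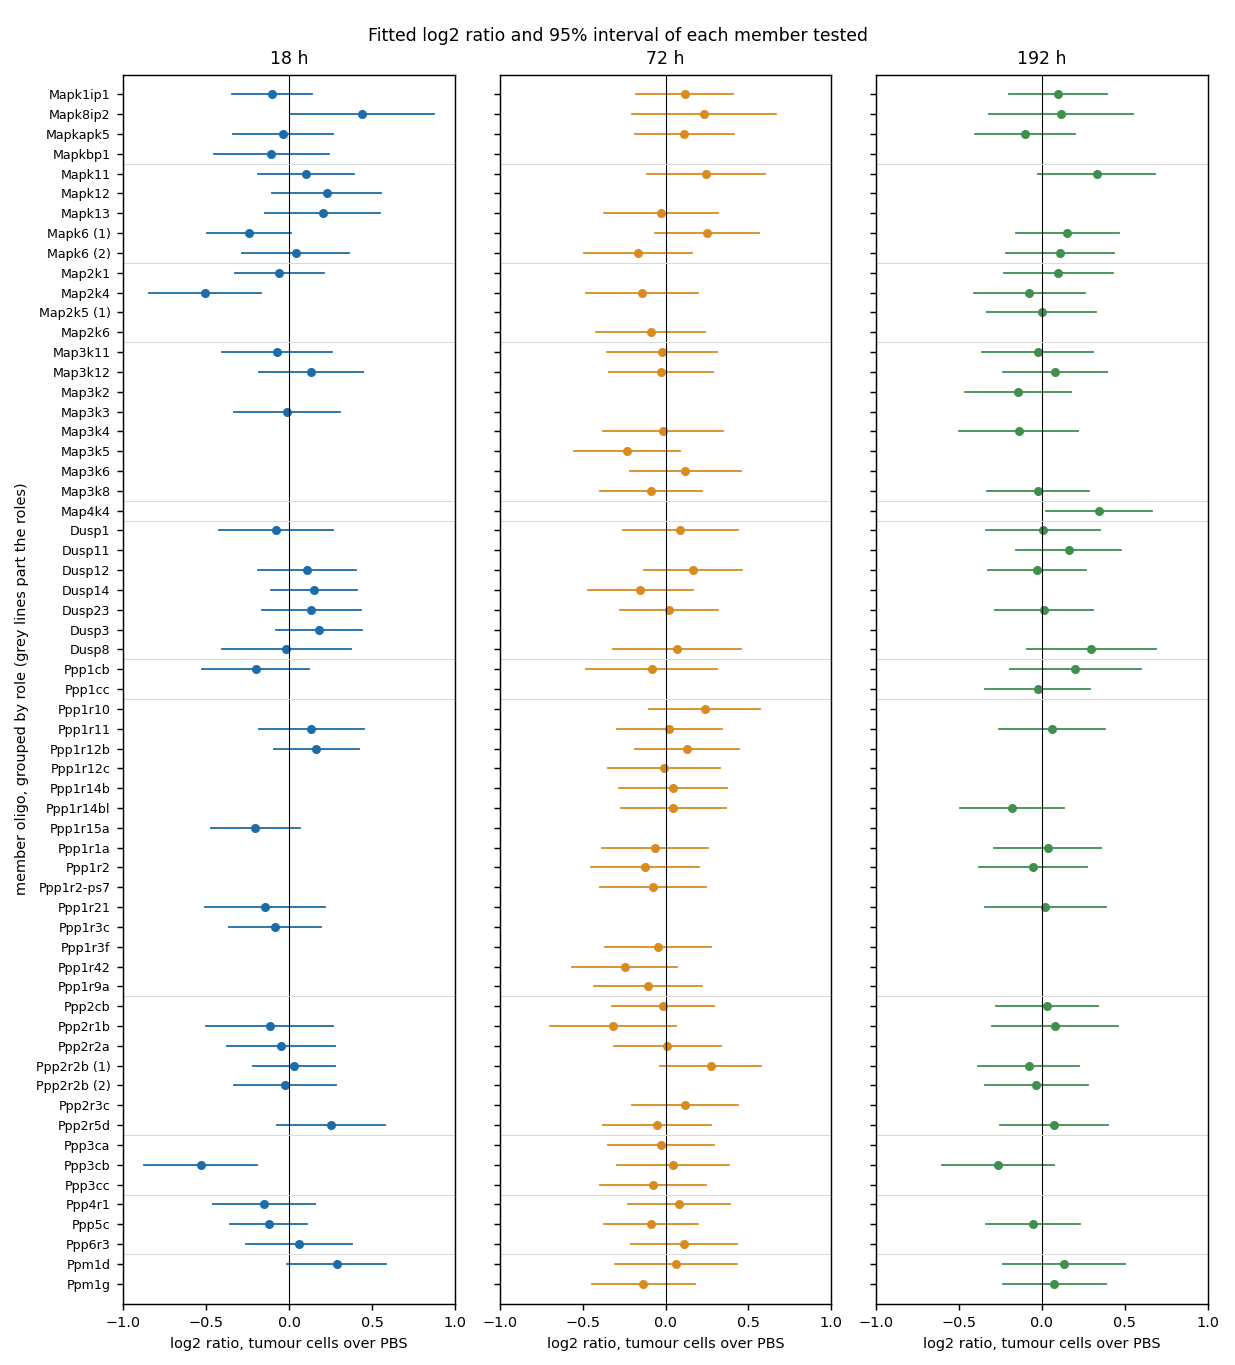
Fitted log2 ratio of tumour cells over PBS (points) with its 95% interval from limma (lines) for each kinase and phosphatase oligo tested, in 3 panels for 18, 72 and 192 h. Rows are grouped by role and parted by grey lines, and (1) and (2) mark the oligos of a gene that has 2; all intervals lie inside -1 to 1, and most cross 0.

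Among the MAP kinases proper, the first oligo of Mapk6 (ERK3, an atypical MAP kinase) differed in sign between 18 h and the later times. It stood at -0.21, -0.36 and -0.16 in replicates 4, 5 and 6 at 18 h, at 0.07 and 0.43 at 72 h, and at 0.01 and 0.30 at 192 h. The 3 values at 18 h were all below 0 and the 4 later values all above it. The share of all oligos with such an order was not counted, so it is not known how unusual it is. In replicate 6 at 18 h the arrays disagreed in sign, at 0.03 with tumour RNA in Cy3 and -0.35 in Cy5. They also disagreed in replicate 3 at 72 h (0.19 and -0.05) and in replicate 3 at 192 h (-0.33 and 0.35). The order of this oligo is thus one of swap means and not of single arrays. Its log2 ratio was -0.24 ± 0.12 (SE, n = 3) at 18 h, 0.25 ± 0.15 (n = 2) at 72 h and 0.15 ± 0.15 (n = 2) at 192 h. Limma's F test between the times gave an unadjusted p of 0.0386 and an adjusted p of 0.948, so it did not pass. Mapk6 was the only 1 of the 21 oligos of these genes under 0.05 in that test, beside 3.11% of the 1222 oligos tested at every time. The second oligo of Mapk6 did not show this order. It stood at -0.08 and 0.16 at 18 h, at -0.01 and -0.32 at 72 h and at -0.06 and 0.28 at 192 h, overlapping at all times, and its sign was opposite to that of the first oligo at 18 and 72 h.

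Mapk11 (p38 beta) was, with Mapk6, the only MAP kinase gene tested at every time. It stood at 0.22, 0.10 and -0.01 at 18 h, at 0.35 and 0.14 at 72 h, and at -0.04 and 0.70 at 192 h, so 5 of 7 replicates were above 0 and replicate 4 at 192 h stood well apart from the rest. The average over the 3 times was 0.23 ± 0.09 (SE), with an unadjusted p of 0.0304 and an adjusted p of 0.996 in limma. At 192 h alone it was 0.33 ± 0.17. In the other 6 replicates the arrays of the swap disagreed in sign for this gene, while both arrays of replicate 4 at 192 h were above 0, at 0.62 and 0.78.

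The other p38 kinases were tested less often. Mapk12 (p38 gamma) stood at 0.09 and 0.37 at 18 h, a log2 ratio of 0.23 ± 0.15 (n = 2), and at -0.01 and 0.00 in the single replicates measured at 72 and 192 h. Mapk13 (p38 delta) stood at 0.13 and 0.28 at 18 h, both above 0, and at 0.24 and -0.30 at 72 h, on both sides of it. Mapk8 (JNK1) was tested at no time, with values of 0.35 in replicate 4 at 72 h and 0.08 in replicate 4 at 192 h.

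Scaffolds and substrates of MAP kinases were led by Mapk8ip2 (JIP2), which holds kinases of the JNK branch together. At 18 h replicate 4 gave 1.02 and replicate 6 gave -0.14, on opposite sides of 0. The 18 h ratio of 0.44 ± 0.20 (n = 2), unadjusted p = 0.0479 and adjusted p = 0.809 in limma, thus rested on replicate 4, and in replicate 5 a single array, with tumour RNA in Cy5, gave -0.54. The later values were close to each other, at 0.22 and 0.24 at 72 h and at 0.13 and 0.10 at 192 h, all above 0. With median centring in place of loess the 18 h ratio was -0.05.

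Mapk1ip1 stood at -0.28, -0.06 and 0.02 at 18 h and at 0.08, 0.15, 0.04 and 0.15 in the 4 later replicates. Its lowest later value was above its highest value at 18 h, but the F test gave an unadjusted p of 0.364 and an adjusted p of 0.948 in limma. The share of all oligos with such an order was not counted. Mapkapk5, a kinase activated by MAP kinases, had ratios of -0.04, 0.11 and -0.10 at 18, 72 and 192 h. Mapkbp1, a JNK-binding protein, was tested at 18 h only, at -0.11 ± 0.16 with replicates of 0.12 and -0.33. Mapkapk2, a main substrate kinase of p38, was tested at no time.

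One step above, Map2k4 (MKK4), which activates JNK and p38, was below 0 in all 6 replicates that measured it. It stood at -0.80 and -0.21 in replicates 4 and 6 at 18 h, at -0.08 and -0.20 at 72 h, and at -0.11 and -0.04 at 192 h. Replicate 4 at 18 h was the lowest by far, and the other 5 lay close together. The 18 h ratio was -0.51 ± 0.16 (n = 2), a level 0.704 times that of PBS, with an unadjusted p of 0.00598 and an adjusted p of 0.758 in limma. Both arrays of the swap were below 0 in replicate 4 (-1.01 and -0.59) and in replicate 6 (-0.23 and -0.19). Averaged over the 3 times the ratio was -0.24 ± 0.09, unadjusted p = 0.0225, adjusted p = 0.996. Of the 1042 oligos of the array with 6 values, 1.73% were on 1 side of 0 in all 6, and among the 17 kinase and phosphatase oligos with 6 values Map2k4 was the only 1. At 72 h the arrays of each swap disagreed in sign for Map2k4, and with the authors' deposited log ratios in place of the scanner values its ratio was 0.00 at 72 h and 0.04 at 192 h.

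The remaining MAP2 kinases stayed near 0. Map2k1 (MEK1), which activates ERK, stood at -0.24, 0.12 and -0.06 at 18 h, at -0.14 in replicate 4 at 72 h, and at 0.30 and -0.11 at 192 h, so its replicates lay on both sides of 0. Map2k6, an activator of p38, was tested at 72 h, at -0.09 ± 0.15. The first oligo of Map2k5, the activator of ERK5, was tested at 192 h, at 0.00 ± 0.15 from replicates of 0.13 and -0.14, and the second oligo was tested at no time.

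**Figure D2:**
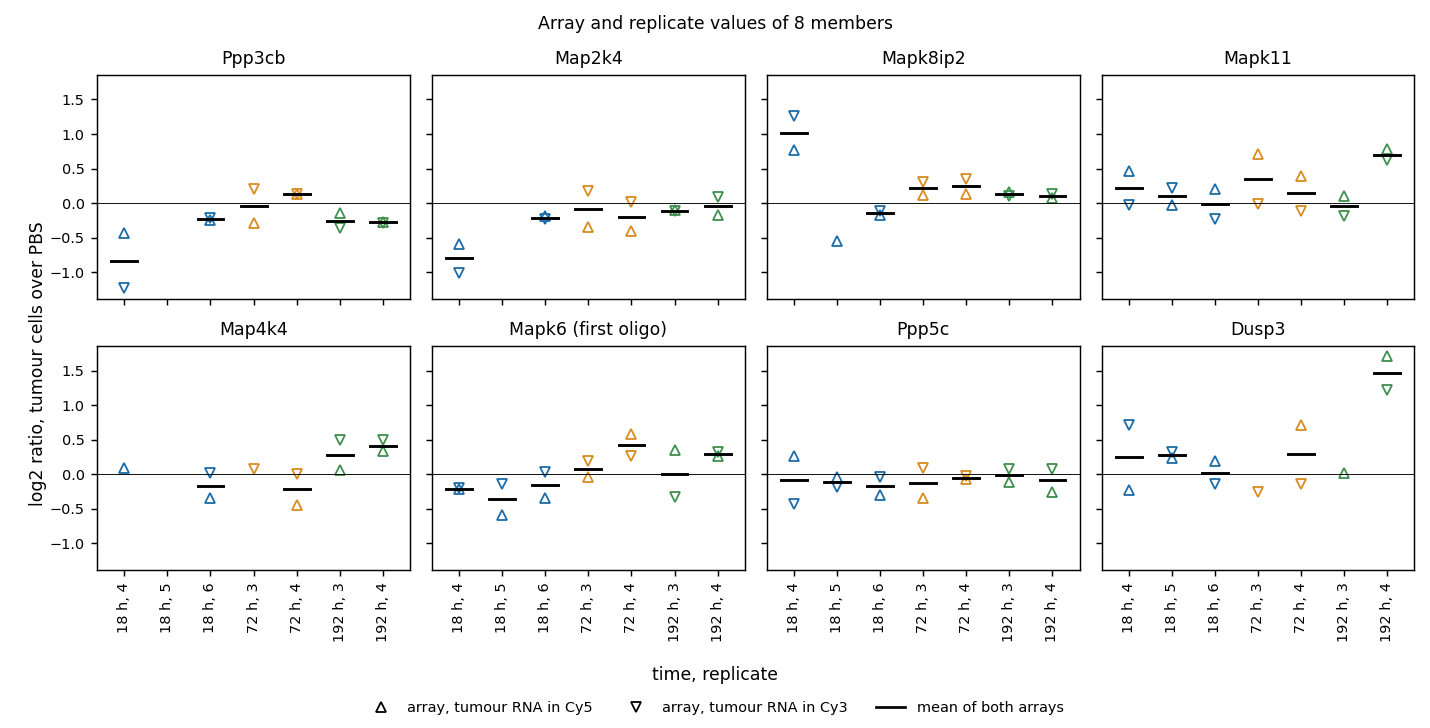
Log2 ratio of tumour cells over PBS for 8 kinases and phosphatases on each array (triangles pointing up for tumour RNA in Cy5, down for tumour RNA in Cy3) and their mean for each replicate (black bars), by time and replicate on the x axis. Ppp3cb and Map2k4 are lowest in replicate 4 at 18 h, where Mapk8ip2 is highest, and Dusp3 is highest in replicate 4 at 192 h; Ppp5c has all 7 bars just below 0.

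MAP3 kinases start the cascades in answer to receptors and stress. Of 11 genes, 3 were tested at 18 h, 6 at 72 h and 5 at 192 h, with 1 of them above 0 at each time. Map3k5 (ASK1), a stress-activated kinase, stood at -0.25 and -0.21 at 72 h, a ratio of -0.23 ± 0.15 (n = 2) with an unadjusted p of 0.138 and an adjusted p of 0.998 in limma. Its values elsewhere were 0.21 in replicate 6 at 18 h and -0.01 in replicate 4 at 192 h, and the arrays of replicate 3 at 72 h disagreed in sign, at 0.16 and -0.67. Map3k12 (DLK), a neuronal kinase known from axon injury, stood at 0.26 and 0.01 at 18 h, at 0.13 and -0.19 at 72 h and at 0.14 and 0.02 at 192 h, above 0 in 5 of 6 replicates and never far from it.

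Map3k2 was tested at 192 h, at -0.12 and -0.17, and Map3k4 at the same time stood at -0.17 and -0.11. Both were thus below 0 in both replicates, with ratios of -0.14 ± 0.15 and -0.14 ± 0.17. Map3k4 had stood at 0.32 and -0.35 at 72 h, on both sides of 0. Map3k3, Map3k6, Map3k8 and Map3k11 had ratios between -0.09 and 0.12 wherever they were tested. Map3k1, Map3k14 and Map3k20 were tested at no time. Map3k14 (NIK), a kinase of the NF-kB pathway, was measured in 2 replicates, at 0.02 in replicate 4 at 18 h and at 1.02 in replicate 4 at 72 h.

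Map4k4, a kinase upstream of JNK, was the only 1 of these genes with an unadjusted p under 0.05 at 192 h in the fit of replicate values; limma with trend and robust settings had 0 and the fit of arrays had 4. It stood at 0.27 and 0.41 in replicates 3 and 4 at 192 h, and at -0.17 and -0.22 in the single replicates measured at 18 h and 72 h. The values at 192 h were both above the 2 earlier ones, an order whose share over all oligos was not counted. Its 192 h ratio was 0.34 ± 0.15 (n = 2), a level 1.27 times that of PBS, with an unadjusted p of 0.0377 and an adjusted p of 1 in limma. All 4 arrays of these replicates were above 0, from 0.05 to 0.49. The difference from the earlier times was not tested, because Map4k4 had only 1 value at each. Map4k1 and Map4k5 were tested at no time.

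Dual-specificity phosphatases showed no called difference. Of 11 genes, 6 were tested at 18 h with 4 above 0, 5 at 72 h with 4 above 0, and 5 at 192 h with 4 above 0. Dusp1 (MKP-1), which is induced early by stress and glucocorticoids and inactivates p38 and JNK, stood at 0.12 and -0.28 at 18 h, at -0.17 and 0.35 at 72 h, and at -0.07 and 0.08 at 192 h. Its replicates lay on opposite sides of 0 at every time, and the ratios were -0.08 ± 0.16, 0.09 ± 0.16 and 0.01 ± 0.16 (n = 2 each).

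Dusp3 (VHR), which acts on ERK and JNK, had the largest single value of all these genes. It stood at 0.24, 0.28 and 0.02 at 18 h, a ratio of 0.18 ± 0.12 (n = 3), at 0.29 in replicate 4 at 72 h, and at 1.47 in replicate 4 at 192 h. All 5 values were above 0, and the last stood far above the rest, at 1.22 with tumour RNA in Cy3 and at 1.71 with the dyes swapped. In replicate 3 at 192 h, on the other printing of the array, only the slide carrying tumour RNA in Cy5 gave a value, at 0.02. Dusp3 could therefore not be tested at 192 h with replicate values from both arrays. In the fit that takes arrays as observations it had a log2 ratio of 0.98 ± 0.28 at 192 h, with an unadjusted p of 0.00289 and an adjusted p of 0.956 in limma.

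Dusp8, which acts on JNK and p38, showed a like split at 192 h, with -0.02 in replicate 3 and 0.62 in replicate 4. Its ratio there was 0.30 ± 0.18, while the replicates stood at -0.32 and 0.29 at 18 h and at -0.03 and 0.16 at 72 h. Dusp12 was above 0 in both replicates at 18 h (0.16 and 0.06) and at 72 h (0.11 and 0.22), and just below 0 in both at 192 h (-0.06 and 0.00 after rounding), with no ratio over 0.16 in size. Dusp14 stood at 0.25, 0.25 and -0.05 at 18 h and at -0.28 and -0.02 at 72 h, and the value in replicate 4 at 192 h was -0.14. Dusp11 was tested at 192 h, at 0.19 and 0.13, a ratio of 0.16 ± 0.15. Dusp23 had ratios of 0.13, 0.02 and 0.01 at 18, 72 and 192 h. Dusp16, Dusp21, Dusp22 and Dusp26 were tested at no time.

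Ppp3cb, the beta catalytic subunit of calcineurin, had the smallest p of all these genes at 18 h. At 18 h replicate 4 gave -0.83 and replicate 6 gave -0.23, and the later replicates stood at -0.04 and 0.13 at 72 h, and at -0.25 and -0.28 at 192 h. The values at 18 h and 192 h were all below both values at 72 h, and replicate 4 at 18 h was again the lowest. How many of all oligos show such an order was not counted. The ratio was -0.53 ± 0.16 (n = 2) at 18 h, a level 0.691 times that of PBS, with an unadjusted p of 0.00449 and an adjusted p of 0.758 in limma. At 72 h it was 0.04 ± 0.16 and at 192 h -0.27 ± 0.16 (unadjusted p = 0.116, adjusted p = 1). Both arrays of the swap were below 0 in all 4 replicates at 18 h and 192 h. The average over times was -0.25 ± 0.09, unadjusted p = 0.0193, adjusted p = 0.996, and the F test between times gave 0.0749 unadjusted and 0.948 adjusted. Its ratio kept its sign in the 14 alternative settings that gave a value at 18 h, from -0.75 to -0.31, and in the 16 at 192 h, from -0.36 to -0.17. Several of these settings could not move it. Leaving out a replicate of another time, or changing only limma's settings, leaves the ratio as it was. Leaving out replicate 4 or 6 gave no test at 18 h, and without replicate 4 only the -0.23 of replicate 6 remained.

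The other catalytic subunits of calcineurin did not share these values. Ppp3ca stood at 0.01 and -0.06 at 72 h, a ratio of -0.03 ± 0.15, and at -0.06 and -0.05 in replicate 4 at 18 h and replicate 4 at 192 h. In replicate 4 at 18 h, where Ppp3cb was at its lowest, Ppp3ca was near 0. Ppp3cc stood at -0.03 and -0.13 at 72 h (-0.08 ± 0.15), at 0.06 in replicate 6 at 18 h and at -0.10 in replicate 4 at 192 h. Neither was tested at 18 or 192 h, so a difference between the subunits was not tested.

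PP1 is the phosphatase with the most genes on the array. Ppp1cb, its beta catalytic subunit, stood at -0.75, 0.11 and 0.04 at 18 h, at 0.00 and -0.16 at 72 h, and at 0.40 and 0.00 at 192 h. A single replicate departed from 0 at 18 h and another at 192 h, and within the first of these the swap arrays read -1.35 and -0.14. The ratios were -0.20 ± 0.15 (n = 3), -0.08 ± 0.19 and 0.20 ± 0.19. Ppp1cc, the gamma subunit, was tested at 192 h, at -0.03 ± 0.15 from replicates of 0.00 and -0.05. Ppp1ca, the alpha subunit, was tested at no time, and its 3 replicate values were 0.01, -0.18 and 0.01 at 18, 72 and 192 h.

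Regulatory subunits direct PP1 to its substrates or inhibit it. Of 21 genes, 5 were tested at 18 h, 12 at 72 h and 5 at 192 h, with ratios between -0.25 and 0.24. Ppp1r15a (GADD34), which brings PP1 to the translation factor eIF2 alpha after stress, was below 0 in all 3 replicates at 18 h, at -0.45, -0.15 and -0.02, and stood at 0.39 in replicate 4 at 192 h. Its 18 h ratio of -0.20 ± 0.13 had an unadjusted p of 0.127 and an adjusted p of 0.863 in limma. Ppp1r12b, a myosin phosphatase subunit, was above 0 in all 3 replicates at 18 h, at 0.09, 0.15 and 0.25, and stood on both sides of 0 at 72 h.

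At 72 h Ppp1r42 stood at -0.24 and -0.26, and Ppp1r10 (PNUTS), a nuclear partner of PP1, at 0.08 and 0.39. Their ratios of -0.25 ± 0.15 and 0.24 ± 0.15 were the lowest and the highest of the 12 regulatory subunits at that time, with unadjusted p of 0.118 and 0.150 and an adjusted p of 0.998 for both in limma. The arrays of the swap at 72 h disagreed in sign for Ppp1r10 in replicate 4, at 1.21 with tumour RNA in Cy3 and -0.43 in Cy5. Those of Ppp1r42 in replicate 3 did so too, at 0.05 and -0.52. Ppp1r10 had a value of -0.37 in replicate 4 at 192 h, below 0. At 192 h Ppp1r14bl stood at -0.29 and -0.07, a ratio of -0.18 ± 0.15, and its relative Ppp1r14b was not tested there. Whether oligos of such closely named genes tell their transcripts apart was not tested.

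Inhibitors 1, 2 and 3 of PP1 lay near 0. Ppp1r1a (inhibitor 1) had ratios of -0.06 at 72 h and 0.03 at 192 h, Ppp1r2 (inhibitor 2) of -0.13 and -0.05, and Ppp1r11 (inhibitor 3) of 0.13, 0.02 and 0.06 at 18, 72 and 192 h. Ppp1r9a (neurabin), which brings PP1 to dendritic spines, was tested at 72 h, at -0.11 ± 0.15 from replicates of -0.21 and 0.00. Ppp1r2-ps7, Ppp1r3c, Ppp1r3f, Ppp1r12c, Ppp1r14b and Ppp1r21 had ratios between -0.14 and 0.04 where tested. Ppp1r3g, Ppp1r7, Ppp1r12a, Ppp1r14d, Ppp1r17 and Ppp1r27 were tested at no time.

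PP2A joins a catalytic, a scaffold and a regulatory subunit. Ppp2cb, the beta catalytic subunit, stood at 0.04 and -0.07 at 72 h and at 0.08 and -0.01 at 192 h, ratios of -0.02 ± 0.14 and 0.03 ± 0.14. Ppp2r1b, a scaffold subunit, had the lowest ratio of all these genes at 72 h, -0.32 ± 0.18 with an unadjusted p of 0.0955 and an adjusted p of 0.998, which came from -0.69 in replicate 3 beside 0.05 in replicate 4. It stood at -0.34 and 0.11 at 18 h and at 0.02 and 0.13 at 192 h, so its low values came from 1 replicate at each of the first 2 times.

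Ppp2r2b, a brain-rich B55 regulatory subunit, had the smallest p of these genes at 72 h. Its first oligo stood at 0.28, -0.04 and -0.15 at 18 h, at 0.29 and 0.25 at 72 h, and at -0.07 and -0.09 at 192 h. Both values at 72 h were above both at 192 h, an order not counted over all oligos, while the 18 h values lay on both sides of 0. The 72 h ratio was 0.27 ± 0.14 (n = 2), unadjusted p = 0.0772, adjusted p = 0.998 in limma, and the F test between times gave 0.217 unadjusted and 0.948 adjusted. Its second oligo had no value from both arrays of a swap at 72 h, where a single array of each replicate gave 0.13 and -0.32, and stood at -0.02 at 18 h, with the opposite sign to the 0.03 of the first, and at -0.03 at 192 h. Ppp2r5d, a B56 regulatory subunit, was above 0 in both replicates at 18 h, at 0.37 and 0.14 (0.25 ± 0.15), and had ratios of -0.05 and 0.07 later. Ppp2r2a and Ppp2r3c had ratios between -0.05 and 0.12, and Ppp2r2d and Ppp2r5c were tested at no time.

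Ppp5c (PP5), a phosphatase that works with the chaperone Hsp90 and the glucocorticoid receptor, was below 0 in all 7 replicates, though by little. It stood at -0.08, -0.12 and -0.17 at 18 h, at -0.13 and -0.05 at 72 h and at -0.02 and -0.09 at 192 h. The 3 times overlapped. Among the 523 oligos of the array with 7 values, 0.382% were on 1 side of 0 in all 7, and of the 7 kinase and phosphatase oligos Ppp5c was the only 1. The average over times was -0.09 ± 0.07 (SE), with an unadjusted p of 0.211 and an adjusted p of 0.996 in limma. The sign was less regular on single arrays, where both arrays of the swap were below 0 in 3 of the 7 replicates. With the authors' deposited log ratios the ratio was -0.05, -0.01 and 0.02 at 18, 72 and 192 h. At 18 h it ran from -0.23 to 0.15 over 15 alternative settings, above 0 in 2 of them, median centring (0.10) included. Some of the settings, such as a later replicate left out, could not change this ratio.

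Ppp4r1, a subunit of PP4, was below 0 in both replicates at 18 h (-0.18 and -0.12) and above 0 in both at 72 h (0.03 and 0.13). Ppp6r3, a subunit of PP6, had ratios of 0.06 and 0.11 at those times. Both oligos of Ppp6r2 were tested at no time, and both were high in replicate 4 at 192 h, at 0.43 and 0.77, whereas the first stood at -0.57 in replicate 4 at 72 h.

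In the PPM family, Ppm1d (Wip1), which dephosphorylates p38 and p53, was above 0 in 6 of 7 replicates. It stood at 0.79, 0.09 and -0.03 at 18 h, at 0.08 and 0.05 at 72 h, and at 0.12 and 0.14 at 192 h. Replicate 4 at 18 h stood apart and the other 6 lay between -0.03 and 0.14. Both arrays of the swap were above 0 only in replicate 4 at 18 h and replicate 4 at 192 h. In the other swaps the arrays disagreed in sign. The share of all oligos above 0 in 6 of 7 replicates was not counted. The 18 h ratio was 0.29 ± 0.14 (n = 3), unadjusted p = 0.0609, adjusted p = 0.818 in limma, and the average over times was 0.16 ± 0.10, unadjusted p = 0.123, adjusted p = 0.996. Ppm1g had ratios of -0.13 ± 0.14 at 72 h and 0.07 ± 0.14 at 192 h, and Ppm1j was tested at no time.

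**Figure D3:**
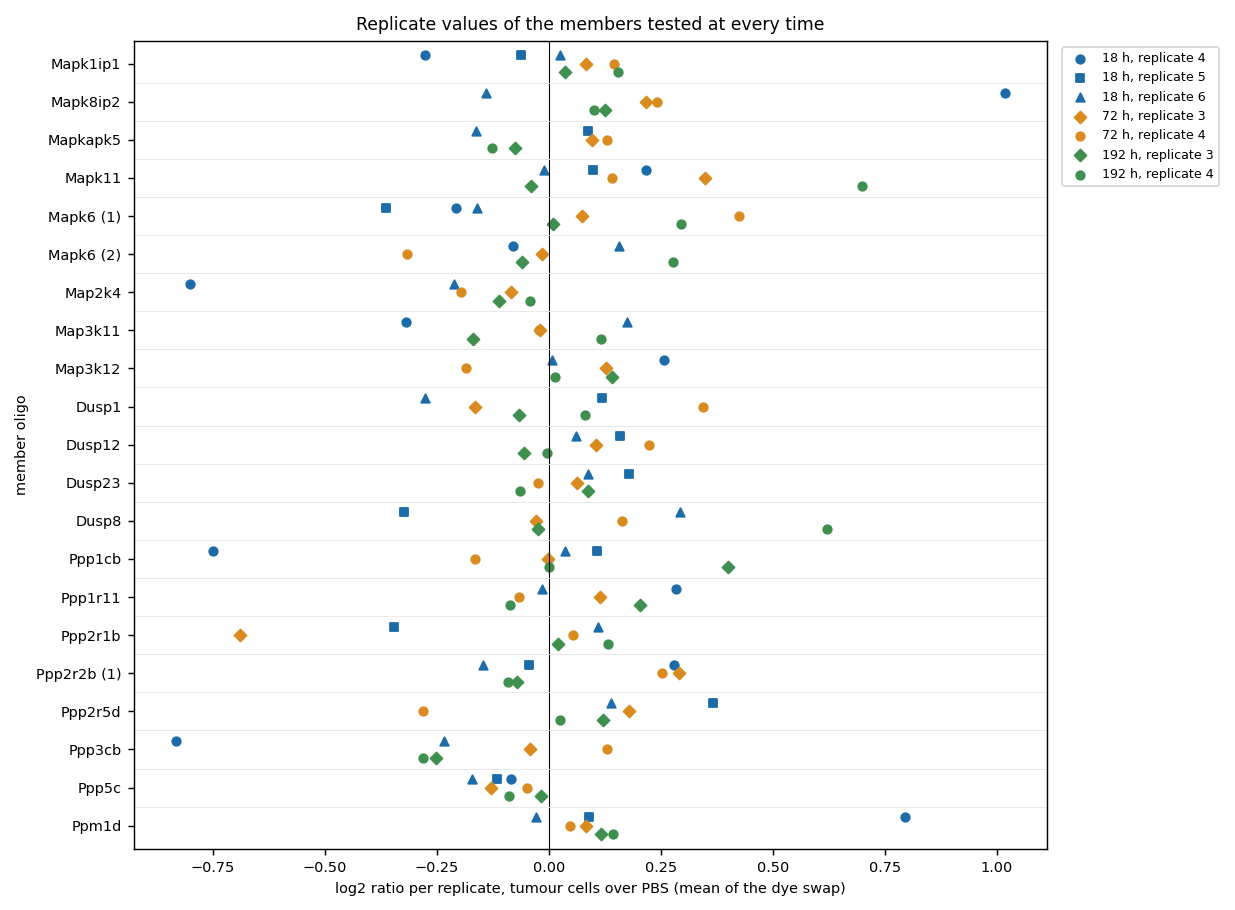
Log2 ratio of tumour cells over PBS in each replicate (mean of both arrays of the dye swap, x axis) for the 21 kinase and phosphatase oligos tested at every time (y axis). Colour gives the time and the marker the replicate; values of one time often lie on both sides of 0, and the values farthest from 0 at 18 h belong to replicate 4.

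Over the 3 times together, 0 of the 21 oligos tested at every time passed in limma, against 0% of 1222. Ppp3cb, Map2k4 and Mapk11 were the 3 with an unadjusted p under 0.05 for the average, beside 1.64% of all oligos. Limma with trend and robust settings passed 0 of the 21 and had 0 under 0.05 unadjusted. The average was above 0 for 13 of the 21, beside 54.8% of all. For the difference between times, 0 of 21 passed against 0% of 1222, with 1 under 0.05 unadjusted by either setting of limma.

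Replicate 4 at 18 h carried the widest spread. The SD of its log2 ratios was 0.42 over the 29 kinase and phosphatase oligos measured and 0.35 over all oligos, beside 0.15 to 0.28 and 0.16 to 0.25 in the other 6 replicates. Without it, 27 oligos of these genes were fitted at 18 h, of which 0 had an unadjusted p under 0.05 in limma, and their smallest adjusted p was 0.998. Ppp3cb, Map2k4 and Mapk8ip2, the 3 oligos under 0.05 at 18 h with it, were not among the 27. Each had values at 18 h only in replicates 4 and 6, so this count does not retest them. Of the 351 replicate values of these genes, 3 were over 1 in size, beside 0.447% of the 33120 values of the array. They were Mapk8ip2 in replicate 4 at 18 h, Map3k14 in replicate 4 at 72 h and Dusp3 in replicate 4 at 192 h, all above 0. Map3k14, Ppp6r2 and the 192 h value of Dusp3 were singled out after their values had been seen.

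The arrays of a swap often disagreed. Read as tumour over PBS, both arrays of a swap correlated below 0 across oligos in 6 of 7 swaps (r from -0.60 to 0.16, median -0.29). Among the kinases and phosphatases the arrays of a swap disagreed in sign for 14 of 29 oligos in replicate 4, 8 of 27 in replicate 5 and 37 of 63 in replicate 6 at 18 h. They disagreed for 42 of 61 and 30 of 63 in replicates 3 and 4 at 72 h, and for 26 of 40 and 34 of 68 in replicates 3 and 4 at 192 h. Over all oligos the share was 46.5% to 74.4%. Where the signs disagree, the dye component of the ratio is larger than the tumour component. Whether the dyes of each pair were in fact swapped as the labels say was not tested. Replicates of the same time correlated across oligos at a median r of 0.03 (5 pairs, -0.12 to 0.09) and those of different times at -0.02 (16 pairs). Genes are not independent replicates, and no p is given for these values.

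**Figure D4:**
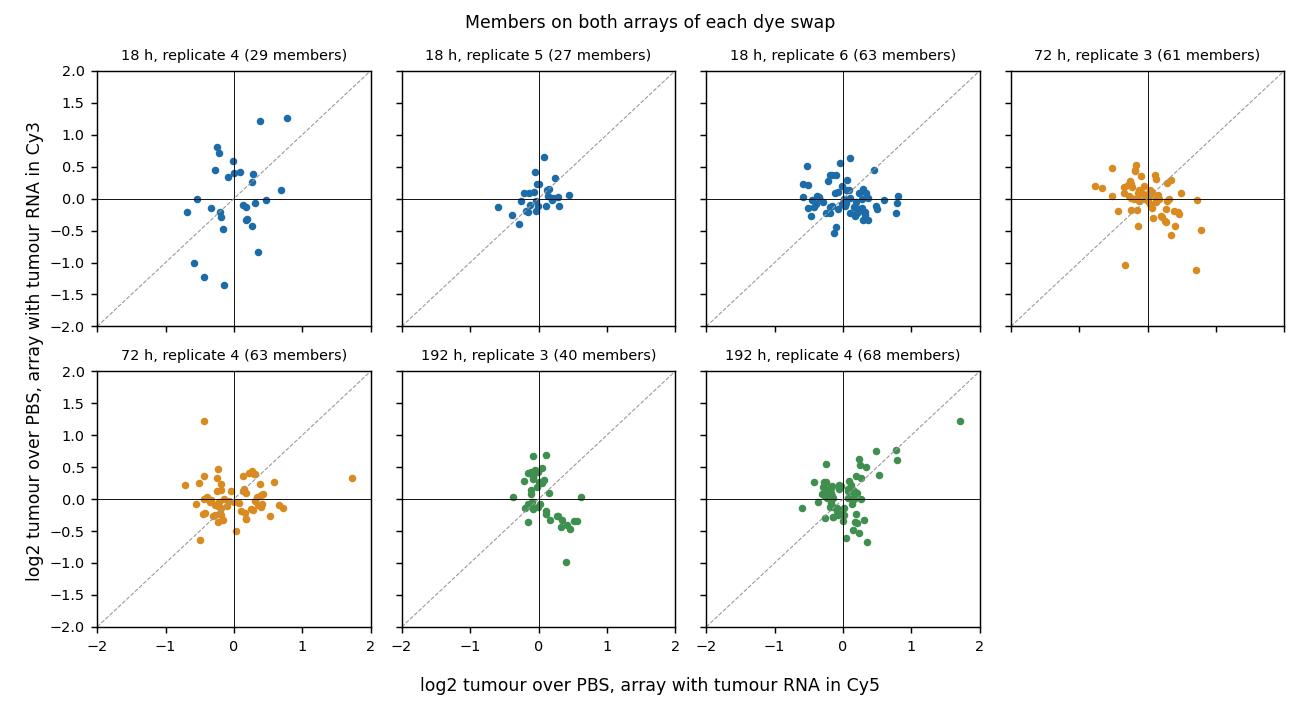
Log2 ratio of tumour cells over PBS on the slide carrying tumour RNA in Cy5 (x axis) and on the slide carrying it in Cy3 (y axis) for the kinase and phosphatase oligos with a value on both, in 1 panel per replicate. Points on the dashed line agree between the arrays, and points in the upper left and lower right of a panel disagree in sign; Dusp3 is the far upper right point in replicate 4 at 192 h.

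Genes that act before or after these kinases and phosphatases were counted on 80 chosen genes, of which 35 were on the array and 34 had a replicate value. At 18 h, 5 of the 21 tested were above 0 (47.7% of all oligos), with a median log2 ratio of -0.13, at 72 h 9 of 17 (45.6% of all; median 0.02) and at 192 h 11 of 17 (55.3% of all; median 0.06). None passed an adjusted p of 0.05 in limma, and 2, 0 and 1 had an unadjusted p under 0.05, beside 6.16%, 2.71% and 3.34% of all. Of the 6 targets of MAP kinases tested at 18 h, 1 was above 0, where 47.7% of all oligos were; below 0 were, among others, the transcription factors Creb1 (-0.62 ± 0.22, n = 2) and Elk1 (-0.24 ± 0.12, n = 3), with adjusted p of 0.758 and 0.818. Ksr1, a scaffold of the ERK branch, stood at -0.41 ± 0.18 at 18 h (n = 2, adjusted p = 0.802). All 6 targets tested at 192 h were above 0, beside 55.3% of all oligos, with a median of 0.08, and Arc, an activity-regulated synaptic gene, was highest at 0.36 ± 0.15 (n = 2, adjusted p = 1). These were not the same 6 genes as at 18 h. Only Creb1, Elk1 and Fos were tested at both times, and Creb1 stood at 0.02 at 192 h. At 72 h the smallest p belonged to Nfatc4, a transcription factor that calcineurin activates (0.29 ± 0.15), Cdk5r1, the activator of the neuronal kinase Cdk5 (-0.24 ± 0.16), and Gadd45a, a stress gene that acts on p38 and JNK kinases (-0.20 ± 0.15), each with n = 2 and an adjusted p of 0.998. At 192 h Rasgrp1 (0.28 ± 0.14) and Araf (-0.19 ± 0.15), both of the path to ERK, followed Arc, with an adjusted p of 1 for each.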

How the data were processed

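The 14 total RNA arrays, printed in house, have 10080 spots in 48 blocks and 3 scans each. Per the file headers, the intensity in channels A and B already has the local background subtracted, and a fraction gives the pixels of a spot that were not saturated. The deposited value tables hold the authors' processed log ratio, named a score here because log base and normalization are not stated; its column medians were -0.00637 to 0.00336. Which program read the images is not stated in the sources at hand.

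Spots with flag C in both channels (taken as good; no legend of the flags was found), with intensities above 0 and at least 0.9 of pixels unsaturated, gave log2 ratios, which were corrected by loess (span 0.3) per scan, averaged over scans, turned to tumour over PBS and averaged per oligo. Limma 3.58.1 (lmFit, eBayes; R 4.3.3) took 1 value per replicate and gave 1 coefficient per time with 1 shared spread; p-values were adjusted by Benjamini-Hochberg over all oligos tested, and each SE is limma's moderated standard error. The fit was also run on simulated data, and the outcome is not reported here. The planned normexp correction was run as an alternative only, because of the subtracted background.

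On each of the 2 printings, 9066 spots have 1 gene, 12 several and 1002 are not named here. All 85 oligos matched a gene number in RefSeq's table of GRCm38.p6, used for names only. Mean brightness by name correlated between printings (Spearman 0.596, 5737 oligos). Replicate 3 at 192 h is on the printing with 2 arrays, the others on the one with 12. The poly A RNA arrays were not used here.

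The genes, lists and tests were chosen with earlier results of these data known. Named genes are a set of core genes and, at each time, those with an unadjusted p under 0.05 and the 6 of smallest p on each side of 0; for the average the 3 on each side, for the F test the 6 of smallest p, and 3 pathway genes per time. Other members are given to account for all of them. Alternatives covered background, normalization, saturation, dim spots, a single scan, limma settings, arrays as observations, the authors' values, each replicate left out and a replicate block. Deviations from the time means correlated at -0.10 to 0.00 over 4 same-numbered pairs, so replicate numbers were not taken as pairs.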

Additional observations from a re-analysis of the deposited data

How the results depend on the processing

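No kinase or phosphatase passed an adjusted p of 0.05 in any alternative except 1: without replicate 3 at 192 h, Dusp3 passed (adjusted p = 0.0137 in limma) with the value of replicate 4 alone, whose spread is then assumed to be that of the other replicates. Over the leave-one-out settings, the count of these genes that passed ran from 0 to 1 at 192 h and was 0 at 18 h, 72 h, for the average and for the difference between times. Over all oligos those settings passed 0 to 1 at 72 h and 0 to 19 at 192 h, the 19 without replicate 3 and the 1 at 72 h without replicate 4. With median centring in place of loess, 8 oligos passed at 18 h and 1 at 192 h, none of them a kinase or phosphatase, and Mapk8ip2 at 18 h turned to -0.050. With the replicate block, 34 of 523 oligos passed for the difference between times and 0 of the 7 kinase and phosphatase oligos (2 unadjusted, smallest adjusted p = 0.195). In the fit with the replicate block, replicates 5 and 6 occur at 18 h only, so their own block terms take them up. The 18 h side of that difference then rests on replicate 4, the replicate with the widest spread. Its count is therefore not a test over the 18 h replicates. All the counts above stand against 0 in the fit reported, and their causes were not tested.

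The fit with arrays as observations used a within-swap correlation of -0.00244, which treats the arrays of a swap almost as separate replicates. The median ratio of the kinases and phosphatases stayed between -0.06 and 0.07 at every time over 16 alternatives. Some of these, such as a replicate of another time left out, could not change it. Of the values of the genes named, 55 of 76 kept their sign with the authors' values, 62 of 79 with loess within blocks and 67 of 81 with median centring. The number of arrays, and the oligos lost for lack of a value on both arrays, limit the precision.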
